A study of Mus musculus with 4 samples.

Results

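Reporter activity was examined at the loci of 56 mouse genes of the cell cycle and of DNA replication. A genomic element was assigned to one of these genes when, of all transcription start sites (TSS) of protein-coding transcripts in GENCODE release M21, the one nearest to the element's centre belonged to that gene and lay within 100 kb. The rule used position alone and no reporter value. It found 100 of the 24232 elements in the authors' deposited table, and these fell to 43 of the 56 genes. The nearest start site does not show which gene an element acts on.

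The assay was STARR-seq, which places genomic fragments where a reporter plasmid is transcribed, and reads out each fragment by the RNA it gives rise to. The cells were activated T helper 17 (Th17) primary cells from C57BL/6NJ mice, into which the library was brought as an episome by transient transfection. All were treated over 3 days with antibodies against CD3e (0.25 µg/mL), CD28 (1 µg/mL), interleukin-4 (2 µg/mL) and interferon-gamma, together with interleukin-6; age and sex are not given. The 4 biological replicates make up 1 group, share 1 donor label, and have no second condition to be set against, so the design implies a comparison of the RNA of each element with its share of the input.

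Each element has 1 fold change and 1 q-value, which the authors computed from all 4 replicates combined. Values per replicate were not used here, so no standard deviation can be given, the sequencing depth is unknown, and the fold changes below stand without an error between cultures. The base and direction of the logarithm are not stated; values were read as log2 of RNA over input DNA, and elements above 0 on that scale are called higher and those below 0 lower; were the ratio the other way round, higher and lower would swap throughout. The q-values equal a Benjamini-Hochberg adjustment over 114722 tests, of which the listed elements are 21.1%, each with a q-value under 0.01. A count of higher elements is therefore a count among elements that the authors called in either direction. The labelled cell type could not be checked against marker genes, since the table holds reporter activity and no gene expression.

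Passage through the cell cycle is driven by cyclin-dependent kinases (CDKs), which are switched on by cyclins and held back by CDK inhibitors. D-type cyclins with CDK4 and CDK6, and then E-type cyclins, lead to release of E2F transcription factors from the retinoblastoma family, and E2F target genes supply the proteins that license origins, copy DNA and make nucleotides. Later genes, active in G2 and mitosis, often carry CCAAT boxes and a cell cycle homology region (CHR) in their promoters, the latter bound by the MuvB complexes with B-MYB and FOXM1. Activated T cells divide rapidly, and D-type cyclins and CDK6 are the G1 regulators best known in lymphocytes.

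The sequences that the results turn on were read from the mm10 genome, from 5′ to 3′. The central 300 bases, or the whole element where it was shorter, are shown for the 4 genes whose distal higher element had the smallest p-values, where distal means more than 1 kb from the TSS. Capitals mark a p53 site in Cdkn1a, STAT and AP-1 sites in Ccne2, and AP-1 and IRF sites in Ccne1, all as consensus matches only; the Rbl1 element held none of these.
Cdkn1a distal element, chr17:29078876-29079175, plus strand: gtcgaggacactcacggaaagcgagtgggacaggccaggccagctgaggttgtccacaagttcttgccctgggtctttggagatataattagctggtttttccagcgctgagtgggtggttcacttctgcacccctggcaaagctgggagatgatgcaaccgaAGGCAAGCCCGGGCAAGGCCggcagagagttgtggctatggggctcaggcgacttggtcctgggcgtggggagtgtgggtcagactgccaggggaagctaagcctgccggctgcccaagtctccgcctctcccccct
Ccne2 distal element, chr4:11176239-11176538, plus strand: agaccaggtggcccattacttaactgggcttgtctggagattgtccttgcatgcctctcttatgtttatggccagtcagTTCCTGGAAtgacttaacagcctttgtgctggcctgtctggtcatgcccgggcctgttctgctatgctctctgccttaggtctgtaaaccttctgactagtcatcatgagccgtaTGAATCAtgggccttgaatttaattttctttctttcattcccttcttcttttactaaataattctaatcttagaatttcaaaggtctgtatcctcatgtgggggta
Ccne1 distal element, chr7:38070989-38071288, plus strand: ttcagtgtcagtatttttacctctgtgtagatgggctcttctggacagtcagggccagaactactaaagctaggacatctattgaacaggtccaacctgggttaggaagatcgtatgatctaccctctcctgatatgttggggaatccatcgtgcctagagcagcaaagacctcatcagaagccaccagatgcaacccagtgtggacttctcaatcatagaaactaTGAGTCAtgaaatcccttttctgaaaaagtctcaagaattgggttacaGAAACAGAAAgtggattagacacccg
Rbl1 distal element, chr2:157221976-157222225, plus strand: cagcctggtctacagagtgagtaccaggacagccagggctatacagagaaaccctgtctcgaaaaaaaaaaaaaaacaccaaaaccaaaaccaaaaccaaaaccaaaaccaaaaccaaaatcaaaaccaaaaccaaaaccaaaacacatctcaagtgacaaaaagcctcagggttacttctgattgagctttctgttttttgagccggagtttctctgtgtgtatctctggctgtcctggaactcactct

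Windows of 30 bases, written on the strand of the gene, show the matches inside promoter-proximal elements, meaning those centred within 1 kb of the TSS. They were chosen to set lower promoter elements (Ccne2, E2f8, E2f1, Cdk1, Plk1) beside higher ones (Cdkn1a, Rrm2, E2f3, Birc5). Capitals mark the match itself. The Rrm2 match was centred 504.5 bp downstream of the TSS, at the end of its element, and its printed window runs past that end.
Cdkn1a promoter, p53 match, chr17:29090923-29090952, plus strand: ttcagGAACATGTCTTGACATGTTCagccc
Ccne2 promoter, E2F match, chr4:11191050-11191079, plus strand: cggcgccaataTTTCCCGCgcgggctctgg
E2f8 promoter, E2F match, chr7:48881322-48881351, minus strand: gaaggcggccgTTTCCCGCctcccgccccg
E2f1 promoter, E2F match, chr2:154569857-154569886, minus strand: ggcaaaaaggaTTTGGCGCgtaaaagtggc
Rrm2 promoter, E2F match, chr12:24708731-24708760, plus strand: tttgactcttcTTTCCCGCcaaagtgtctc
E2f3 promoter, E2F match, chr13:29986056-29986085, minus strand: ttgaaaagccgGCGGGAAAtctgagtttcg
Cdk1 promoter, CHR match, chr10:69352910-69352939, minus strand: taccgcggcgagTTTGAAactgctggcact
Plk1 promoter, CHR match, chr7:122159453-122159482, plus strand: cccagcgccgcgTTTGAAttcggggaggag
Birc5 promoter, CHR match, chr11:117849289-117849318, plus strand: ccgcccgcgcgaTTTGAAtcctgcgtttga

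Listed elements were found near most of these genes. Of the 56 genes, 43 (76.8%) had a linked element, against 52.9% of 21829 coding genes, and 37 (66.1%) had a promoter-proximal one, against 37.9%. The 100 elements split into 46 higher and 54 lower (46.0% higher, exact 95% binomial interval 36.0 to 56.3%, which covers counting error only). Over all 24217 listed elements on chromosomes 49.4% were higher, so the share near cell cycle genes lay close to the background. The median log2 fold change was -0.58, against -0.59 over all listed elements, and single values ran from -3.45 at the Ccne2 promoter to 4.87 at an element linked to Rbl1.

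The direction differed between elements at promoters and elements away from them. Of the 45 promoter-proximal elements 7 were higher (15.6%, interval 6.49 to 29.5%), against 13.3% of all listed promoter-proximal elements. Of the 55 distal elements 39 were higher (70.9%, interval 57.1 to 82.4%), against 70.3% of all listed distal elements within 100 kb. Both shares were near those of the whole table. At 14 genes the listed elements ran in both directions, and each of these genes had a lower promoter-proximal element together with a higher distal one: Ccnb1, Ccnb2, Ccnd1, Ccnd2, Ccnd3, Ccne1, Ccne2, Cdk1, Cdkn1a, Cenpa, Mcm6, Rbl1, Tyms and Wee1. A further 11 genes had higher elements only and 18 lower elements only. These shares of the 43 genes (32.6% both, 25.6% higher only, 41.9% lower only) lay near those of the 11500 other genes with a linked element (28.8%, 25% and 46.1%). The element with the smallest p-value was a higher one at 21 of the 43 genes (48.8%), against 43.8% of the other genes.

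**Figure D1:**
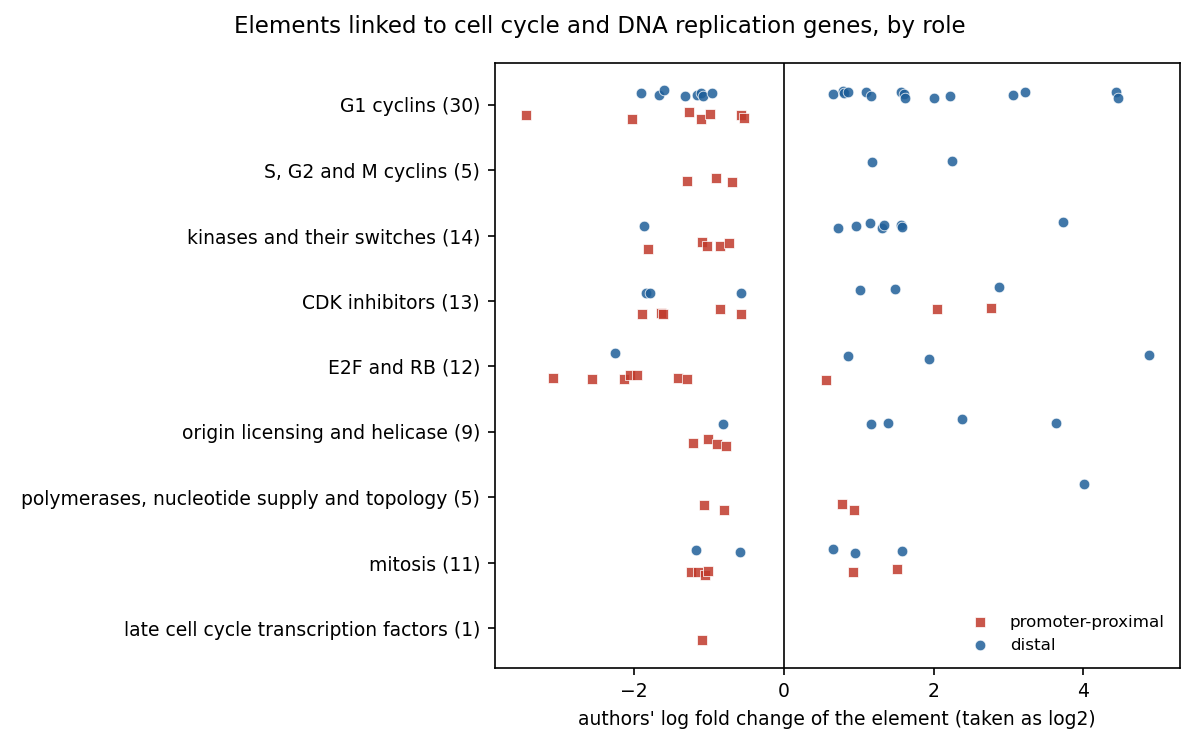
The log2 fold change of each of the 100 linked elements (horizontal axis) by the role of its gene, with the number of elements in brackets. Red squares are promoter-proximal and blue circles distal elements; 38 of the 45 squares lie left of 0 and 39 of the 55 circles right of it.

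The G1 cyclins held 30 of the 100 elements, 15 higher and 15 lower. Their 7 promoter-proximal elements were all lower, and 15 of their 23 distal elements were higher. Over all listed elements 13.3% of promoter-proximal ones and 70.3% of distal ones within 100 kb were higher. These shares are the background to the counts of every role below. Ccne2 encodes cyclin E2, which drives entry into S phase with CDK2, and it had the lowest promoter value among the 56 genes as well as one of the highest distal values. Its promoter element (chr4:11190426-11191800, 1375 bp) stood at -3.45 (q = 2.12e-13), and an intergenic element 15.0 kb upstream (chr4:11176201-11176575, 375 bp) at 4.43 (q = 1.88e-13). Another element, of 75 bp, lay 7.0 kb upstream at 3.06 (q = 2.94e-07) and had 1 other near-identical copy in the genome. The promoter and the distal elements of Ccne2 thus lay on opposite sides of 0.

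Ccne1, the gene of the other E-type cyclin, had 7 elements. The promoter element stood at -2.03 (q = 1.18e-09). Of 4 elements downstream of the gene 3 were higher, at 1.16, 0.86 and 1.62 from the nearest to the farthest of them, and the 1 between them was lower, at -1.08. The 1.62 element (chr7:38070701-38071575, 35.8 kb from the TSS, q = 1.68e-12) had the smallest p-value of the locus. Upstream, an element 16.8 kb away reached 4.46 (q = 1.68e-09), the second highest value of the 100, and 91.3% of its bases were repeat-masked. The farthest upstream element, 34.6 kb away, was lower at -1.67 (q = 0.00848). Higher and lower elements were thus interspersed along the locus.

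Among the D-type cyclins, which pair with CDK4 and CDK6, Ccnd3 had the most elements of any member, 8, of which 4 were higher. Within introns, 3 elements between 3.0 and 10.5 kb from the upstream TSS stood at 1.60 (chr17:47507951-47508525, q = 6.72e-11), 0.66 and 1.56, and the next 2, at 16.5 and 37.6 kb, at -1.32 and -1.16. Elements at the internal start sites, near the 3′ end of the gene record, were lower, at -0.99 and -0.57. The eighth element, whose centre lay in an untranslated region of the neighbouring gene Bysl, stood at 2.00 (q = 1.89e-10).

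Ccnd2 had 7 elements. The 2 at the promoter (-1.11 and -0.54) and 1 in the gene body (-0.96) were lower. The 4 far upstream elements, between 64.1 and 93.8 kb from the TSS, were all higher, at 1.09, 0.79, 0.80 and 3.22. The last of them (chr6:127245751-127246300, 550 bp, q = 1.56e-09) was intergenic and lay nearly at the limit of the 100 kb window. Ccnd1, the remaining D-type cyclin gene, had 5 elements, 4 of them lower. Its promoter element (-1.27) and 3 elements up to 31.4 kb upstream (-1.60, -1.11 and -1.91) were lower, and 1 at 52.1 kb upstream was higher, at 2.22 (q = 9.92e-06). The 3 lower distal elements of Ccnd1 had 57.0 to 66.8% GC, and the higher one 48.9%.

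**Figure D2:**
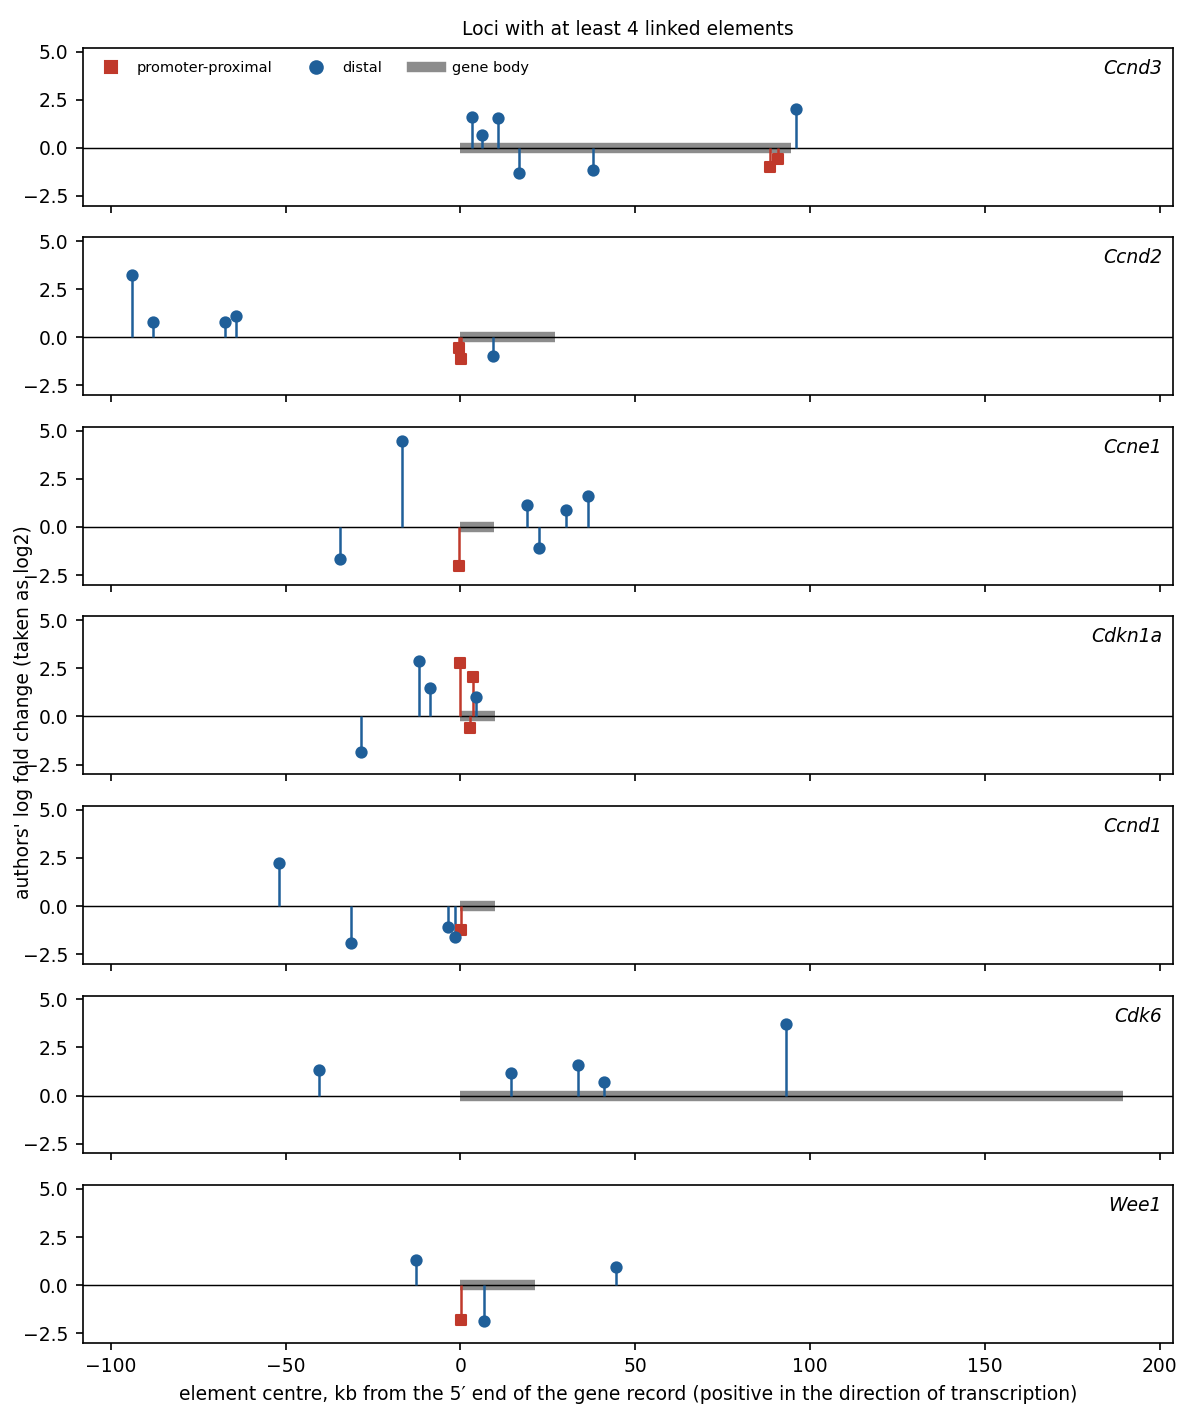
The 7 loci with 4 or more linked elements, each element drawn at its distance in kb from the 5′ end of the gene record (horizontal axis) with its log2 fold change (vertical axis); the grey bar is the gene body. All promoter-proximal elements shown (red squares) are below 0 except 2 of the 3 at Cdkn1a, and all 5 elements of Cdk6 are above 0.

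The kinases and the enzymes that switch them had 14 elements, 8 of them higher. All 5 promoter-proximal elements were lower and 8 of 9 distal elements higher, beside 13.3% and 70.3% higher over all listed elements. Cdk6, a CDK that acts with D-type cyclins, had 5 elements, all higher and all distal, and no listed element at its promoter. All 5 had under 50% GC, and of all such listed distal elements within 100 kb 84.6% were higher. One of the 5 lay 40.3 kb upstream (1.34), and the other 4 within the gene at 1.15, 1.57, 0.72 and 3.73 in order along it. The element with the smallest p-value was the 1.15 one (chr5:3355651-3356425, 11.7 kb from the TSS, q = 7.95e-11). The 3.73 element, 90.2 kb past the nearest TSS of the gene, had 1 other near-identical copy in the genome. Beyond the 100 kb limit lay 9 more elements whose nearest coding TSS was that of a member, and 5 of these were nearest to Cdk6, between 111.2 and 194.7 kb away, at 3.40, 2.65, 2.20, 4.15 and 1.84. The remaining 4 were nearest to Ccnd2, E2f7 (2.45 and -3.03) and Mki67 (1.77), the first of them also higher. All 9 were left out of the counts. Of all listed distal elements, at any distance, 72.7% were higher. Cdk4, the close relative of Cdk6, had a promoter element alone, at -1.09 (chr10:127063201-127063900, q = 1.82e-06).

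Wee1, the kinase that restrains CDK1 before mitosis, had the longest element of the set at its promoter (chr7:110121376-110122975, 1600 bp), at -1.82 (q = 9.99e-11). An element 12.8 kb upstream was higher at 1.31 (q = 2.18e-10), as was one 44.3 kb downstream at 0.96, and one in the gene body, 6.8 kb from the TSS, was lower at -1.87. Cdk1, the mitotic CDK, had a lower promoter element (-0.73) and a higher element 29.9 kb away (1.56, q = 0.00783). Cdc25a, the phosphatase that activates CDKs, had 2 promoter elements, both lower, at -0.86 and -1.03. The cyclins of S, G2 and M phase repeated the split: the promoter elements of Ccna2, Ccnb1 and Ccnb2 stood at -0.91, -0.69 and -1.30, and single distal elements at Ccnb1 (1.18) and Ccnb2 (2.24, in an intron of Myo1e) were higher. The lowest of these 3 promoters, that of Ccnb2 (chr9:70421126-70421900), had a q-value of 1.57e-07.

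Cdkn1a had the highest promoter value of the set. The gene encodes p21, a CDK inhibitor and one of the best known direct targets of p53. A 200 bp element at its upstream TSS (chr17:29090851-29091050) stood at 2.77 (q = 7.31e-16), the highest of the 45 promoter-proximal values. A distal element 11953.5 bp upstream (chr17:29078726-29079325, 600 bp) reached 2.87 with the smallest q-value of the 100 elements, 2.05e-16; its centre lay in the noncoding gene Trp53cor1, a p53-induced RNA also called lincRNA-p21. Of the remaining 5 elements, 3 were higher, at 1.48 (8.8 kb upstream), 2.04 and 1.01 (0.8 and 1.7 kb past the downstream TSS). A 300 bp element just upstream of that second TSS was lower at -0.58, as was the element farthest upstream, 28.4 kb away, at -1.84. Cdkn1a was the single member with a higher promoter-proximal and a lower distal element.

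Both top elements of Cdkn1a held a p53 match in their central 300 bp, defined as 2 decamers with intact cores, at most 1 mismatch in the flanks and a spacer of up to 13 bp. The promoter match, printed above, was centred at position -41.5 bp from the TSS and had no spacer. No other of the 100 central windows held such a match; in windows of 500 bp and over whole elements the lower Ccnd1 element at -1.91 held one too. Among all listed elements, 0.21% of promoter-proximal and 1.74% of distal windows did, and 90.8% of the 218 distal elements with one were higher, against 69.9% of those without. A match in the sequence does not show binding, and p53 was not measured.

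The other 3 inhibitor genes of the set, Cdkn1b (p27), Cdkn2c (p18) and Cdkn2d (p19), had lower elements alone. The promoter of Cdkn1b (chr6:134919976-134920825) stood at -1.64 (q = 3.53e-08) and a distal element at -0.58. Cdkn2c had 2 neighbouring promoter elements at -1.90 and -1.61 (chr4:109666276-109667250 for the latter, q = 8.91e-10) and a distal one at -1.79. The promoter of Cdkn2d (chr9:21291051-21291700) stood at -0.86 (q = 7.85e-06). Among the inhibitor genes of the set, higher elements were therefore listed at Cdkn1a and at none of the other 3. This did not hold for inhibitor genes outside the set, which belong to the wider pathway list described below. Distal elements were higher at Cdkn2a (1.55, 1.19, 0.9 and 0.99) and at Cdkn2b (1.13, 1.29 and 1.09). The promoter elements of Cdkn2a (-1.21), Cdkn2b (-1.18) and Cdkn1c (-3.19) were lower.

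The E2F and retinoblastoma genes had the lowest median of the role groups with more than 1 element, -1.69 over 12 elements. Of the 12, 8 were promoter-proximal, and 7 of these 8 were lower. All listed promoter-proximal elements had a median of -1.22, and 13.3% of them were higher. The role medians were not adjusted for the mix of promoter-proximal and distal elements. E2f8 and E2f7, the atypical E2Fs that repress transcription, stood at -3.08 (chr7:48880676-48881550, q = 1.43e-13) with a second promoter element at -2.14, and at -2.06 (chr10:110744951-110745825, q = 9.47e-10). The activator E2f1 stood at -1.96 (chr2:154568976-154570425, q = 3.68e-10). Rb1, the retinoblastoma tumour suppressor, had promoter elements at -2.57 (chr14:73325576-73326625, q = 2.20e-09) and -1.30. The exception was E2f3, another activator, at 0.56, whose q-value of 0.00989 was near the limit of the table.

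Rbl1 encodes p107, a relative of the retinoblastoma protein. Its promoter element was lower (-1.42), an element 3.0 kb into the gene was higher (1.93, q = 5.03e-07), and an element 17.6 kb upstream, inside an intron of Mroh8 (chr2:157221976-157222225, 250 bp), had the highest value of all 100, 4.87 (q = 3.14e-12). Repeat-masked bases made up 78.4% of this element, whose printed sequence holds a run of adenines and a simple repeat. E2f2 had 1 distal element, in its own intron, at 0.86. E2f7 also had a distal element, and it was lower at -2.26, the lowest of the 55 distal values.

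Among the 12 genes for origin licensing and the replicative helicase, 7 had elements, 9 in all. The 4 promoter-proximal elements, at Cdc6 (-1.01), Cdt1 (-1.21), Mcm5 (-0.89) and Mcm6 (-0.78), were all lower and stood close together. Of all listed promoter-proximal elements 13.3% were higher. CDC6 and CDT1 load the MCM helicase onto origins. Of the 5 distal elements 4 were higher: Mcm10 at 3.63 (chr2:5036426-5036750, in an intron of Optn, q = 3.42e-08), Gins1 at 2.38 (chr2:150915251-150915400, in its own intron, q = 7.06e-08), Mcm6 at 1.39 (chr1:128357476-128357750, in its own intron, q = 3.98e-07) and Gins2 at 1.16 (chr8:120563626-120564525, in an intron of Gse1, q = 4.81e-07). A short element in an intron of Cdc6 was lower at -0.82. Of all listed distal elements within 100 kb 70.3% were higher. Gins1, Gins2 and Mcm10 had no listed promoter element.

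The genes for polymerases, nucleotide supply and DNA topology were thinly covered, with 5 elements at 4 of 7 genes. Rrm1 and Rrm2, the subunits of ribonucleotide reductase, both had a higher promoter element, at 0.78 (q = 1.16e-05) and 0.93 (q = 0.000951). Those of Tyms, the thymidylate synthase gene, and Top2a, the topoisomerase of dividing cells, were lower, at -1.07 and -0.80. Tyms also had a distal element at 4.01 (chr5:30046101-30046525, 27.3 kb from the TSS, q = 9.59e-10), of which 94.4% was repeat-masked. Both ribonucleotide reductase genes thus stood on the opposite side of 0 from most promoters.

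The mitosis genes had 11 elements at 7 of 10 genes, 5 of them higher. Of 6 promoter-proximal elements 2 were higher, beside 13.3% of all listed. Cenpe, the kinetochore motor, had a higher promoter element (1.51, q = 4.15e-06) and a higher element 20.5 kb upstream (1.58), so that both of its elements lay above 0. Birc5, which encodes survivin of the chromosomal passenger complex, stood at 0.92 (q = 0.000793). Aurkb, the kinase of the same complex, stood at -1.06 at the promoter and at -1.18 in an element 5.4 kb upstream (chr11:69040026-69040550, q = 1.20e-07). The promoters of the centromere histone gene Cenpa (-1.24), the proliferation marker Mki67 (-1.15) and the mitotic kinase gene Plk1 (-1.01) were lower as well, while Cenpa had a higher distal element (0.95), as did the checkpoint gene Bub1b (0.65). A distal element of Mki67 was lower at -0.59. Mybl2, the gene of B-MYB, had 1 element, at its promoter, at -1.10 (chr2:163054351-163055525, q = 3.30e-06).

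Of the 13 genes with no linked element, 10 had no listed element across a TSS: Cdk2, Mcm2, Mcm3, Mcm4, Mcm7, Cdc20, Cdc45, Pcna, Pola1 and Bub1. At Pole, Aurka and Foxm1 an element did span the TSS, but its centre lay nearer to the start of the neighbouring gene, and all 3 of these elements were lower: -2.00 (counted to Pxmp2), -0.54 (counted to Cstf1) and -2.65 (counted to Rhno1). Whether the fragments at the other 10 promoters were tested and not called, or not tested, cannot be told from the table.

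Higher elements had a lower GC content than lower elements. The median GC content was 48.9% for the 46 higher and 62.7% for the 54 lower elements. Among distal elements 26 of 28 under 50% GC were higher (92.9%, interval 76.5 to 99.1%), 9 of 14 from 50 to under 55%, and 4 of 13 at 55% or more (30.8%, interval 9.09 to 61.4%). Over all listed distal elements within 100 kb the same classes gave 84.6%, 65.6% and 26%, so the members followed the course of the whole table. When each of the 100 elements was given the share of higher elements among all listed elements of its promoter class and GC decile, the shares summed to 43.0, against 46 observed. By distance from the TSS, 5 of 8 elements at 1 to 5 kb, 15 of 22 at 5 to 20 kb and 19 of 25 at 20 to 100 kb were higher, against 57.6%, 68.5% and 76.4% of all listed. Of the 8 distal elements above 3 on the log2 scale, 3 were mostly repeat-masked and 2 others had a near-identical copy, which leaves Ccne2 (4.43), Mcm10 (3.63) and Ccnd2 (3.22).

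**Figure D3:**
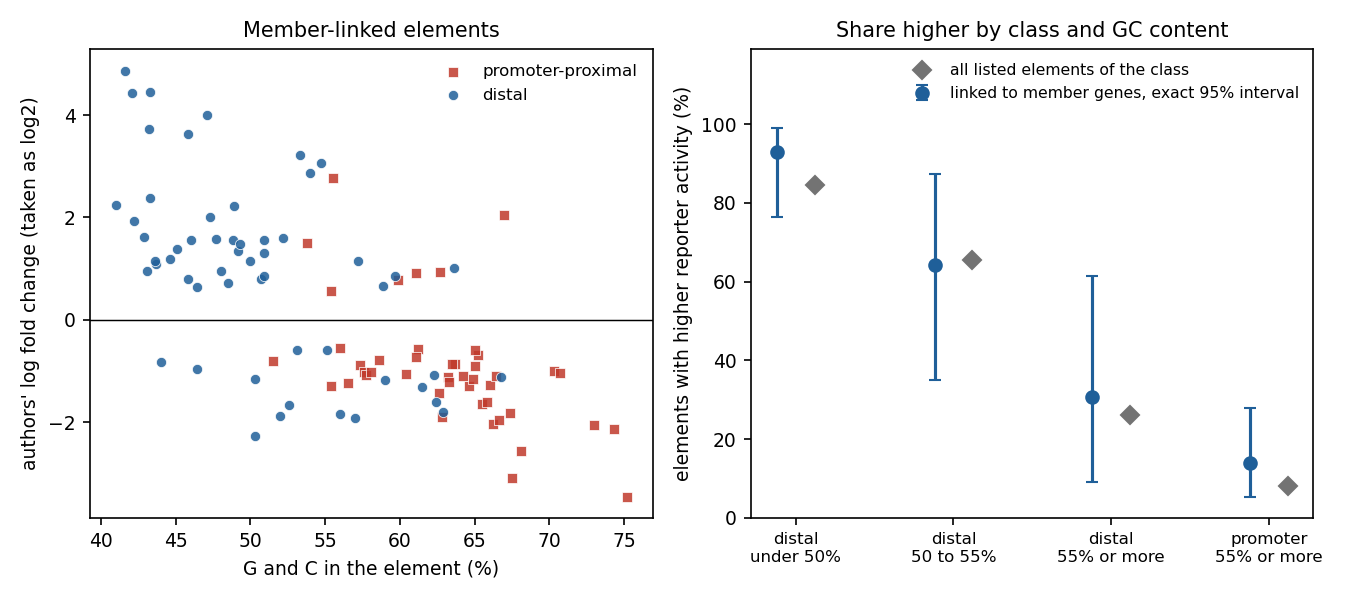
Left, GC content (%) of each linked element against its log2 fold change; right, the share of higher elements (%) by class and GC content, for linked elements with exact 95% binomial intervals (blue) and for all listed elements of the class (grey diamonds). The share among linked distal elements goes from 92.9% under 50% GC to 30.8% at 55% or more, and the grey diamonds lie inside every interval.

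Consensus matches were counted on both strands in the central 300 bp of each element and set beside all listed elements of the same class. The window was a fixed 300 bp of genome around the element's centre. For elements shorter than that it ran past their ends, so some counted matches lay outside the element. In promoter-proximal elements, matches to the E2F consensus (TTTCCCGC, TTTGGCGC, TTTCGCGC or TTTGCCGC) were found in 7 of 45 (15.6%), against 3.91% of all. Those to the CHR (TTTGAA or TTCGAA) were found in 9 of 45, against 7.66%, and CCAAT boxes (CCAAT) in 25 (55.6%, against 27.0%). The 7 with an E2F match, at Ccne2, Cdc6, E2f7, E2f8, Mcm5, Mcm6 and Top2a, were all lower; of all 372 listed promoter elements with such a match, 41 were higher. Searched over their whole length, 18 of the 45 held an E2F match (40.0%, against 9.09%), and 2 of the 18 were higher, Rrm2 and E2f3. The median log2 fold change was -1.04 with and -1.06 without an E2F match among members, and -1.22 both with and without one among all listed promoter elements. Levels with and without the match thus lay close together.

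The annotated promoters held more E2F, CHR and CCAAT matches than their comparison set, here all genes and not listed elements. RefSeq promoters (GRCm38, 250 bases before to 50 after the start) were matched for 44 of the 56 genes. An E2F match stood in 14 of the 44 (31.8%), against 2.60% of all genes in that table, a CHR in 16 (36.4%, against 21.7%) and a CCAAT box in 33 of the 44 (against 41.1%). Cdk2, Mcm3, Mcm7 and Pola1 had an E2F match there and no linked element. An AP-1 match (TGANTCA) stood in none of the 44, against 8.97% of all genes. A GC box (GGGCGG) stood in 38 of the 44 (86.4%, against 38.2%). No comparison was made with promoters of like GC content.

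AP-1 and IRF matches lay mostly in distal elements, and each was found in 1 of the 45 promoter-proximal windows. An AP-1 match was found in 19 of the 55 (34.5%, against 37.7% of all listed distal elements) and 17 of the 19 were higher, with a median of 1.39, against 22 of the 36 without one, with a median of 0.83. Over all listed distal elements 88.4% with and 59.3% without an AP-1 match were higher. Matched elements were found at Ccne2 (4.43), Tyms (4.01), Cdk6 (3.73, 1.34 and 1.15), Gins1 (2.38) and Ccnb2 (2.24), among others. The 2 lower ones were linked to E2f7 and Cdkn1a. For the 75 bp Ccne2 element at 3.06, counted among the 19, the match lay in the window but outside the element. A match to the IRF consensus was found in 10 of the 55 (18.2%, against 10.0%), and 9 of the 10 were higher, with Mcm10 (3.63) and Ccnd2 (3.22) at the top; of all 1257 listed distal elements with an IRF match 92.1% were higher, and of those without 67.8%. The lower one was the Ccnd1 element 1.7 kb upstream of its TSS. Matches to a GC box (GGGCGG), NRF1, ETS (CCGGAAG), an E-box (CACGTG) and CRE (TGACGTCA) are given in the plot of motif shares. RUNX matches (TGTGGT) stood in 9 of the 55 (16.4%, against 28.2%) and STAT matches (TTCNNNGAA) in 4 (7.27%, against 15.0%). Over whole elements the RUNX shares came to 36.4% and 37.9%, so the RUNX gap seen in the central window was not found there. The STAT gap remained over whole elements, at 9.09% against 19.5%.

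**Figure D4:**
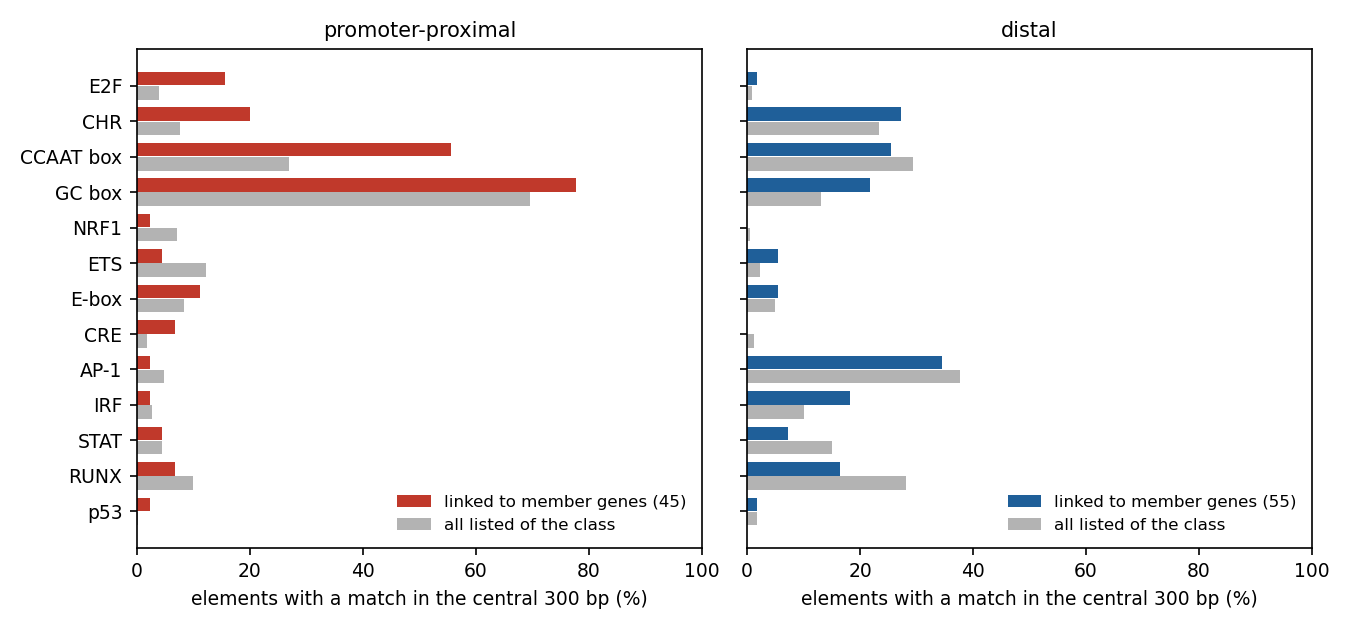
Share of elements (%) with a consensus match in the central 300 bp, for promoter-proximal (left) and distal (right) elements linked to member genes (coloured bars) and for all listed elements of the class (grey bars). E2F, CHR and CCAAT bars are longer than grey in promoters (15.6% for E2F and 55.6% for CCAAT), and the AP-1 bar is close to grey in distal elements (34.5% against 37.7%).

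A wider list of 75 other genes of the same pathways gave 80 elements at 49 genes, 38 higher and 42 lower. Of 41 promoter-proximal elements 4 were higher, beside 13.3% of all listed, and of 39 distal ones 34, beside 70.3%. The smallest p-values among higher elements belonged to Ccng1, a cyclin G gene known as a p53 target (2.19 at its promoter, q = 9.94e-15), Bub3, a spindle checkpoint gene (2.72, 95.5 kb away in an intron of Fgfr2, q = 1.81e-10), and Anapc1, a subunit of the anaphase-promoting complex (1.82, q = 2.08e-10). Among lower elements they belonged to the promoters of the MuvB subunit gene Lin9 (-3.68, q = 4.17e-11), Dbf4, the activator of the CDC7 kinase (-1.61, q = 1.05e-09), and Tfdp1, the E2F partner (-1.94, q = 1.90e-09). Searched over their whole length, 4 of the 80 elements held a p53 match: those of Orc5 (3.32), Ccng1 (2.19) and Rbl2 (2.18) were higher and that of Cdc7 was lower (-1.45). The same search found a match in 0.82% of all listed promoter-proximal elements and in 2.33% of distal ones within 100 kb. Of these, 33.3% and 85.3% were higher. For Ccng1 and Cdc7 no match lay within the central 300 bp, the window used for Cdkn1a above.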

How the data were processed

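STARR-seq was carried out on 4 biological replicates of activated mouse Th17 cells, which form 1 group. The deposited table lists elements on mm10 with a log2 fold change, a p-value and a q-value each, made by the authors from the 4 replicates' alignments combined, according to notes deposited with the samples; for the aligner and the element caller the sources used here give no name. It holds no counts and no values per replicate, so the depth per sample is unknown and no test between samples was made. The 15 elements off the chromosomes were left out.

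Elements were linked by centre to the nearest coding TSS (GENCODE M21) within 100 kb. GC content, repeats and matches to 14 consensus sequences came from the GRCm38 sequence, and near-identical copies (at least 95% identity over 90% of the element) from minimap2 2.31-r1302. Tables were made with pandas 2.3.3, and exact (Clopper-Pearson) 95% intervals with scipy 1.17.1. Linking and the motif search were tested on simulated data: 200 of 200 elements and 700 of 700 planted matches were recovered. The authors' p-value ranks elements within the table. Full values were given for the element with the smallest p-value of each gene, for the 12 genes with the smallest among higher and the 12 among lower elements, with loci of 4 or more elements described in full; of the wider pathway list the 3 smallest in each direction are named. Sequences of the distal elements with the 4 smallest p-values, and example windows of promoter matches, are printed. The members, lists and rules were chosen with earlier results of these data known. Alternatives covered the link distance, the TSS set, the q-value and size limits, copies, length, the promoter window, the motif window and leaving out the gene or chromosome with the most elements.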

Additional observations from a re-analysis of the deposited data

How the results depend on the processing

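No replicate could be left out, and no value carries a depth or a standard deviation, because the deposited table combines the 4 replicates. No paired analysis was possible because there is 1 group and no column per replicate. Of 83 recomputed values, 77 stayed within the 95% interval of the value reported or, for counts, within 1.5 times of it. Most alternatives reused the same elements, so staying inside was likely beforehand, and the tally is no measure of stability. The 77 include the median of 0.66 given below, whose sign differs from the reported -0.58. The share of higher elements among those linked to the members ran from 36.0 to 50.6%, that among promoter-proximal elements from 10.3 to 16.7% and that among distal ones from 69.8 to 84.6%, the last value with q under 0.001. The median log2 fold change moved to -1.03 among elements at or beyond 1 in absolute log2 fold change, and it was above 0, at 0.66, with q under 0.001, so its sign rests on that limit; the median falls between a negative and a positive cloud. Wider search windows gave higher motif shares in promoter-proximal elements: for E2F 31.1% in 500 bp and 40.0% in the whole element, and over whole elements 42.2% for the CHR and 82.2% for CCAAT. The shares over all listed promoter-proximal elements rose as well. They came to 6.19% and 9.09% for E2F, 23.3% for the CHR and 50.5% for CCAAT. Added after seeing the data were the 3 elements that span a member TSS but count to another gene, and distal elements under 50% repeat-masked (70.0% higher); neither moved a share out of its interval.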

Other observations

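Of 57 pairs of neighbouring elements linked to the same gene, 34 had the same sign and 23 opposite signs (40.4%, against 44.7% of 10468 such pairs at other genes). In the 4 pairs no more than 100 bp apart, at Cdc25a, Cdkn2c, E2f8 and Rb1, both elements were lower. All of them were promoter-proximal, a class in which 13.3% of all listed elements were higher. Of the 22 distal elements in introns, 18 lay in an intron of their own gene and 4 in one of another gene: Mroh8 for Rbl1, Myo1e for Ccnb2, Gse1 for Gins2 and Optn for Mcm10. All 4 were higher, from 1.16 to 4.87. Of all listed distal elements in introns within 100 kb, 72.2% were higher, as were 17 of the 22 here. No promoter-proximal element of a member had the TSS of a second coding gene within 1 kb of its centre.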
